A study of Homo sapiens with 6 samples.

Results

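The oxidative phosphorylation genes described here are the nuclear genes whose platform symbol belongs to one of the families NDUFA to NDUFV, NDUFAF, SDHA to SDHD, UQCR, CYC1, CYCS, COX4 to COX8, COX10 to COX19 or ATP5. The rule matched 37 of the 14812 named genes. Of these, 33 are protein-coding and 4 are not. COX10-DT, NDUFA6-DT and NDUFB2-AS1 are transcripts beside a gene of these families, and UQCRBP1 is a pseudogene. The name of the set is wider than its content. The rule matched no structural subunit of complex I, no SDH gene, no CYCS and no catalytic ATP synthase subunit. These were not analysed here. Complex III is covered in part, with no UQCRFS1, UQCRQ, UQCR10 or UQCR11 among the matches. The members are 6 genes of complex III, 10 subunits of complex IV, 6 complex IV isoforms of other tissues, COX7A2L, 5 complex IV assembly factors, 2 complex I assembly factors and 3 ATP synthase genes.

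RNA was measured on Affymetrix arrays in LS180, an established human colorectal adenocarcinoma cell line. Total RNA was prepared with TRIsure and labelled with biotin. The targets of the siRNAs were CTNNB1 (the beta-catenin gene of Wnt signalling), MYC (a growth-promoting transcription factor) and MYU (a long non-coding transcript that the annotation lists as VPS9D1-AS1). Each target has 1 array, and each has 1 array of cells given a control siRNA and named for that target, so the 6 arrays form 3 pairs. Both the CTNNB1 and the MYC control are numbered 1 by their titles and may be the same cells or array. The values of those pairs are therefore set side by side and not correlated. A shared control would enter both differences, so like values in the CTNNB1 and MYC pairs are not independent repeats. For the CTNNB1 array the treatment tag names CTNNB2, unlike the other labels.

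The deposited values are centred within each pair, so a probe set has a knockdown value and its mirror image in the control. NDUFAF8, for example, stood at -0.64 in the CTNNB1 siRNA array and at 0.64 in its control array, a difference of -1.28. Every other value below is such a log2 difference, knockdown minus control of the same pair, on the assumption that the logs have base 2. Levels are lost with the centring, so the cell line could not be checked against its markers. With 1 array on either side nothing can be tested, no p-value is given, and "higher" and "lower" describe these arrays. A gene was counted at a difference of 1.5-fold. MYC differed by -2.38, -1.18 and 0.04 for CTNNB1, MYC and MYU siRNA, and VPS9D1-AS1 by -0.53, -0.24 and -0.50, which is within 1.5-fold also where it was the target. CTNNB1 has no named probe set. As a yardstick of noise, 84 genes of hair keratin-associated proteins had a standard deviation of 0.12, 0.10 and 0.10 in the 3 pairs. This yardstick comes from genes of another tissue and does not cover the noise of well expressed genes.

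Oxidative phosphorylation passes electrons from NADH and succinate through complexes I and II to ubiquinone, on through complex III and cytochrome c, and through complex IV to oxygen. The protons pumped on the way drive ATP synthase. The subunits are encoded by nuclear and mitochondrial genes, and a separate set of assembly factors inserts copper, haem and iron-sulphur clusters and joins the parts. Colonic epithelium is rich in mitochondria, and its mature cells oxidise butyrate.

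Promoter sequence was read from RefSeq windows on GRCh38.p14 for 26 of the 33 protein-coding members. Motifs of factors known for respiratory genes, and of MYC, were searched on both strands in windows of 300 bases, 250 before a gene's start and 50 after it. The 250 bases before the start are shown for 4 genes that stand for the motifs, with matches in capitals. UQCRC1 is the complex III gene with the highest value in the MYU pair, and UQCC2 is the complex III assembly gene with the lowest value in the CTNNB1 pair. These 2 genes were picked after their values were seen. Both carry the NRF1 motif, whose letters are the capitals in their windows, with 1 base left free. COX5B carries the ETS motif CCGGAAGT, which GABPA can bind, and COX14 the E-box CACGTG of MYC and MAX. A further ETS match in the COX5B window of 300 bases does not lie wholly within the bases shown. The windows are chr3:48609647-48609896 on the minus strand for UQCRC1, chr6:33711701-33711950 on the minus strand for UQCC2, chr2:97645812-97646061 on the plus strand for COX5B and chr12:50111986-50112235 on the plus strand for COX14.
UQCRC1: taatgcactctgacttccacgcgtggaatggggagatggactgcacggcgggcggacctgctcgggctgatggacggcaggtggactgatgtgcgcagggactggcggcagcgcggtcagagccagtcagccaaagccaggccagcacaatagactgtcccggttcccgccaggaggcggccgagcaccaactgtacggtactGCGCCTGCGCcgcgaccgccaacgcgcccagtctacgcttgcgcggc
UQCC2: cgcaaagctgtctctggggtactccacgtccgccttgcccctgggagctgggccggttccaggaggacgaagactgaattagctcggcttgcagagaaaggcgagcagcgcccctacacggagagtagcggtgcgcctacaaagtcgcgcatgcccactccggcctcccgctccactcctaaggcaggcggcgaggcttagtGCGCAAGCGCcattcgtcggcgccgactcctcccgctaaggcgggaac
COX5B: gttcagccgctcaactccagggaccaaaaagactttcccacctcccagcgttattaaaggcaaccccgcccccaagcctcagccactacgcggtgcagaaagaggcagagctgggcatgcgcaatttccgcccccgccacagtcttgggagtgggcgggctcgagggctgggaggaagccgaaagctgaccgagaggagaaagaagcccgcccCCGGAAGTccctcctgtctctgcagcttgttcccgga
COX14: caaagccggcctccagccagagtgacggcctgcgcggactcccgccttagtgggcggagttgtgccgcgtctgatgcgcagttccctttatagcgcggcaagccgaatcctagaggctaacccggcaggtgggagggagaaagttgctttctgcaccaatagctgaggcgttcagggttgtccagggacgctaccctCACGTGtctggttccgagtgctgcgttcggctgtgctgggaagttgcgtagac

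The NRF1 motif stood in 18.8% of the 32 member windows, against 5.78% of all 35116 windows, and the ETS motif in 15.6% of member windows, against 4.14% of all. The YY1 motif AAGATGGC was in 9.38% of member windows, against 2.89% of all, and the E-box in 3.12%, against 7.26% of all. The E-box stood in 1 member window, that of COX14, and in 0 of the 15 windows of structural subunits. No motif contains another. Windows of 1 gene can overlap, as those of COX18 and NDUFAF8 do. The NRF1 motif was found for ATP5MJ, COX17, COX18, COX8C and UQCRC1, the ETS motif for ATP5MK, COX17, COX5B, COX8A and UQCRH, and the YY1 motif for NDUFAF8 and UQCRC1. A match is a description of the letters in the window.

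With CTNNB1 siRNA no subunit of complexes III and IV reached 1.5-fold. Of the 7 assembly factors within the rule, 3 were lower by at least that much. Roles were given to the members after the data were seen, so this contrast is a description. The 3 members at least 1.5-fold lower were all assembly factors: NDUFAF8 (-1.28, or 2.42-fold), COX11 (-0.78, or 1.72-fold) and NDUFAF7 (-0.64, or 1.56-fold). No member was 1.5-fold higher. These are 3 of 33 protein-coding members, or 9.09%, against 9.8% of all genes lower and 6.44% of all genes higher at that size, a share near the background. At 2-fold NDUFAF8 was the 1 member counted, against 4.14% of all genes lower and 2.8% higher. In bulk samples, fewer cells with a transcript and less of it per cell cannot be told apart. All 7 assembly factors within the rule were below 0, with a median of -0.44, though the 5 of complex IV had a median of -0.10, nearer 0 than the complex III genes at -0.20. The 17 structural subunits had a median of -0.02, with 7 above 0 and 10 below. Of the 33 members 13 were above 0, against 48.9% of all genes. The median over all genes was 0 in each pair.

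**Figure D1:**
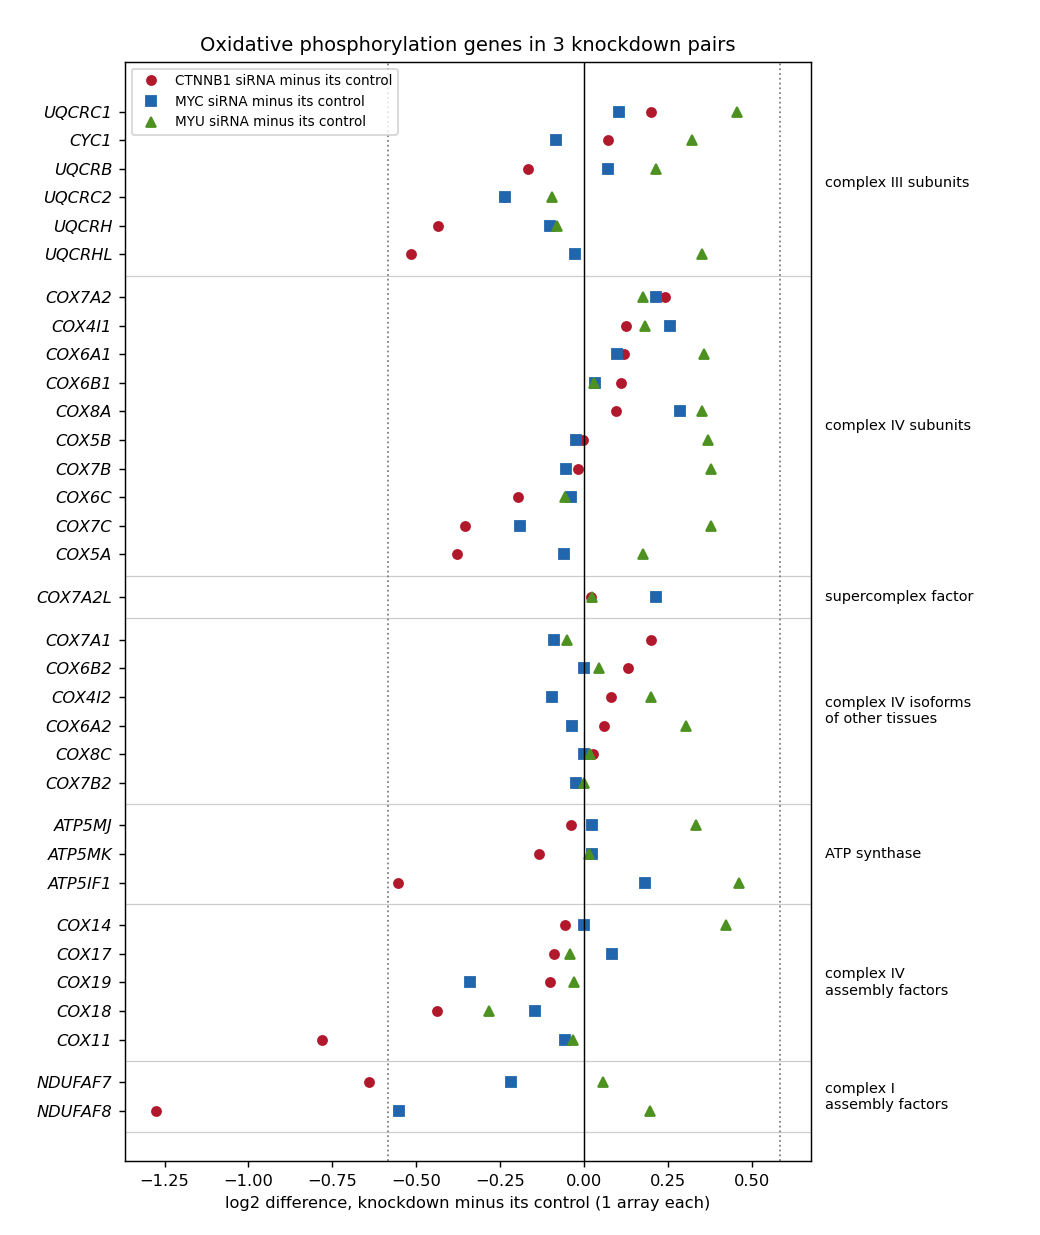
Log2 difference (x axis), knockdown minus its control, of the 33 protein-coding members by role; circles are the CTNNB1, squares the MYC and triangles the MYU pair, each from 1 array on either side, and dotted lines mark 1.5-fold. The subunits lie within 1.5-fold in all pairs, NDUFAF8, COX11 and NDUFAF7 lie left of the dotted line in the CTNNB1 pair, and most triangles of subunits lie right of 0.

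Complex III hands electrons from ubiquinol to cytochrome c. UQCRC1, a core protein, had values of 0.20, 0.10 and 0.46 for CTNNB1, MYC and MYU siRNA, and UQCRC2, the other core protein, of -0.24, -0.24 and -0.09. The 2 core proteins of 1 complex thus lay on opposite sides of 0 in every pair. CYC1, the haem-carrying cytochrome c1, had values of 0.07, -0.08 and 0.32. UQCRB, a small subunit next to the ubiquinone site, had values of -0.17, 0.07 and 0.21.

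UQCRH, the hinge protein that helps cytochrome c1 meet cytochrome c, had values of -0.44, -0.10 and -0.08. Its intronless copy UQCRHL had values of -0.52, -0.03 and 0.35. The genes are nearly identical, so their probes may read the same transcripts. UQCRHL minus UQCRH was -0.08 with CTNNB1 siRNA, 0.07 with MYC siRNA and 0.43 with MYU siRNA. The pseudogene UQCRBP1 had values of 0.22, 0.21 and 0.10, against -0.17, 0.07 and 0.21 for UQCRB. The 6 complex III genes had medians of -0.20, -0.06 and 0.27, and 0 of the 6 reached 1.5-fold in any pair. In the CTNNB1, MYC and MYU pairs 9.8%, 3.63% and 1.21% of all genes were lower at that size, and 6.44%, 2.15% and 0.668% higher. A count of 0 of 6 is near these shares.

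Complex IV, cytochrome c oxidase, reduces oxygen to water. Its 10 subunits in general use ran from -0.38 to 0.24 in the CTNNB1 pair, with a median of 0.05, and from -0.19 to 0.29 in the MYC pair, with a median of 0.01. In the MYU pair they ran from -0.05 to 0.38, with 9 of 10 above 0 and a median of 0.27. None of the 10 reached 1.5-fold in any pair.

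COX4I1, the general form of the largest nuclear-encoded subunit, had values of 0.13, 0.26 and 0.18 for CTNNB1, MYC and MYU siRNA. COX7A2 was above 0 to a like extent throughout, at 0.24, 0.21 and 0.18. COX8A, a small membrane subunit, had values of 0.10, 0.29 and 0.35. These 3 genes were above 0 in all pairs, as were COX6A1 (0.12, 0.10 and 0.36) and COX6B1, on the side of the intermembrane space (0.11, 0.03 and 0.03). COX6A1 is read by 2 probe sets that differed by 0.33, 0.27 and 0.15, of which the lower had values of -0.05, -0.03 and 0.29.

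COX5A and COX7C were the lowest complex IV subunits with CTNNB1 siRNA, at -0.38 and -0.35. COX5A had values of -0.06 and 0.18 in the MYC and MYU pairs, and COX7C of -0.19 and 0.38. COX5B, which binds zinc, stood at 0.00, -0.02 and 0.37, and COX7B at -0.02, -0.05 and 0.38. COX6C had values of -0.19, -0.04 and -0.05, and was the 1 subunit of the 10 below 0 in the MYU pair. COX7A2L, which joins complexes III and IV into supercomplexes, had values of 0.02, 0.22 and 0.03.

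Complex IV has isoforms used mainly in other tissues, which colon cells are not known for. COX6A2 and COX7A1 belong to heart and skeletal muscle, COX4I2 to lung, and COX6B2, COX7B2 and COX8C to testis. Their values ran from -0.02 to 0.20 in the CTNNB1 pair, from -0.09 to 0.00 in the MYC pair and from -0.05 to 0.30 in the MYU pair. COX7A1 was the highest of them with CTNNB1 siRNA (0.20, against -0.09 and -0.05 in the MYC and MYU pairs), and COX6A2 the highest with MYU siRNA (0.30, against 0.06 and -0.04 in the CTNNB1 and MYC pairs). COX4I2 had values of 0.08, -0.09 and 0.20 and COX6B2 of 0.13, 0.00 and 0.05. COX7B2 and COX8C were within 0.03 of 0 in every pair. Of the 17 structural subunits, 5 lay farther from 0 than every isoform with CTNNB1 siRNA, 8 with MYC siRNA and 8 with MYU siRNA. The isoforms farthest from 0 were COX7A1, COX4I2 and COX6A2, with 82.97%, 25.97% and 95.33% of all genes below them in these pairs. The share of all genes farther from 0 than every isoform was not counted. The counts therefore do not set the subunits apart from other genes.

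ATP synthase was represented by 2 small membrane subunits and its inhibitor. ATP5MJ had values of -0.04, 0.02 and 0.33 for CTNNB1, MYC and MYU siRNA, and ATP5MK, which helps ATP synthases pair up in the membrane, of -0.13, 0.02 and 0.02. ATP5IF1 encodes the inhibitor that stops the enzyme from running backwards and consuming ATP. It stood at -0.55 with CTNNB1 siRNA, just inside 1.5-fold, at 0.18 with MYC siRNA and at 0.46 with MYU siRNA, the highest value of any protein-coding member in that pair.

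Among the assembly factors, NDUFAF8 holds NDUFAF5 in place for complex I assembly and was the lowest member in 2 pairs, with values of -1.28, -0.55 and 0.20. In the CTNNB1 pair 2.44% of all genes lay below it and in the MYC pair 4.14%. NDUFAF7, which methylates a core subunit of complex I, had values of -0.64, -0.22 and 0.06. COX11, which carries copper to the catalytic subunit of complex IV, had values of -0.78, -0.06 and -0.03. COX18, which moves the tail of another catalytic subunit across the inner membrane, was below 0 throughout at -0.44, -0.15 and -0.28, the lowest member with MYU siRNA. COX19, a copper-handling factor, had values of -0.10, -0.34 and -0.03, and the copper chaperone COX17 of -0.09, 0.08 and -0.04. COX14, an early factor of complex IV assembly whose promoter carries the E-box shown above, had values of -0.06, 0.00 and 0.42.

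Of the non-coding matches, COX10-DT, NDUFA6-DT and NDUFB2-AS1 stand beside genes of the families of the rule, and UQCRBP1 is a pseudogene on another chromosome than UQCRB. None is a part of the chain. COX10-DT had values of -0.44, 0.29 and -0.26 for CTNNB1, MYC and MYU siRNA, and NDUFB2-AS1 of 0.13, 0.07 and -0.19. NDUFA6-DT had values of 0.19, 0.05 and 0.00, as the mean of 2 probe sets that differed by 0.27 in the CTNNB1 pair. None of the 4 reached 1.5-fold.

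Assembly factors that the symbol rule leaves out were taken from a list of 35 genes, of which 33 were measured. The list was drawn up with earlier results of these data known. With CTNNB1 siRNA 12 of the 33, or 36.4%, were at least 1.5-fold lower and 0 were higher, against 9.8% of all genes lower and 6.44% higher. Of protein-coding genes 11.7% were lower and 7.6% higher. The list had 29 genes below 0 and a median of -0.50. LRPPRC, which keeps mitochondrial messenger RNAs stable, was lowest at -1.65, or 3.13-fold, and its partner SLIRP was at -0.68. Both are among the 12 counted, though LRPPRC acts on messenger RNA and is not an assembly factor in the strict sense. For complex III, UQCC2, needed to make cytochrome b, was at -1.06, LYRM7, a chaperone of the Rieske iron-sulphur protein, at -1.03, and BCS1L, which inserts that protein, at -0.95. The 5 complex III factors had a median of -0.95, while the 6 complex III genes of the rule had a median of -0.20.

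For complex IV, COA7 was at -0.97, SCO1, which delivers copper, at -0.93, COA1 at -0.79 and COA4 at -0.76 with CTNNB1 siRNA. The 5 complex IV factors of the rule had a median of -0.10 and the 12 others of -0.41, which together gave -0.37, against 0.05 for the 10 subunits. HCCS, which attaches haem to the cytochromes c, was at -0.74, ATPAF1, a factor for ATP synthase, at -0.64, and SDHAF3, a factor for complex II, at -0.63. The 4 genes above 0 were SCO2 (0.07), SURF1 (0.05), COA3 (0.15) and PET100 (0.22), all of complex IV, of which SCO2 and COA3 are named because of these values. The gap between the median of the 17 structural subunits and that of all 40 assembly factors, LRPPRC and SLIRP included, was 0.47 in this pair. It was 0.25 with MYC siRNA and 0.18 with MYU siRNA, with the subunits higher each time. Roles and lists were chosen with the data known, so these gaps are descriptions.

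**Figure D2:**
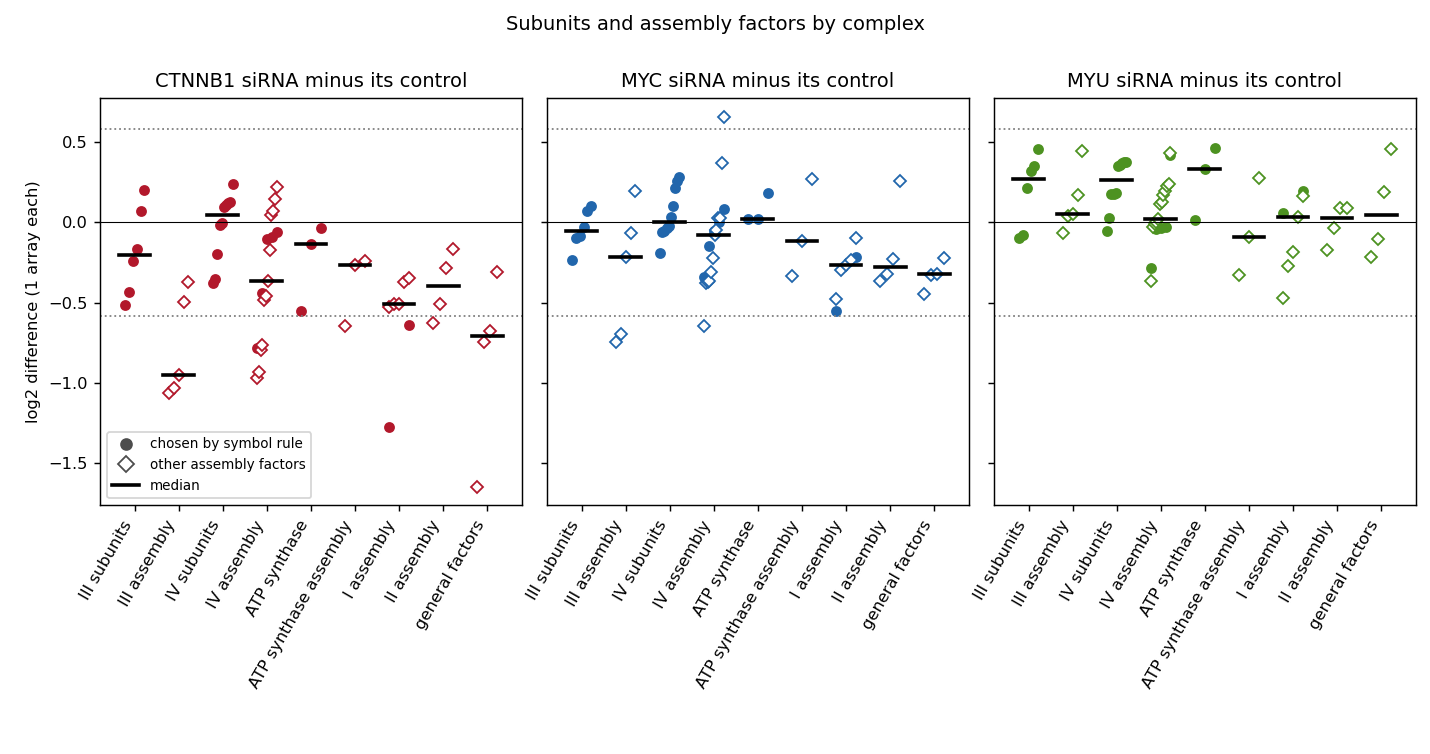
Log2 difference (y axis), knockdown minus its control (1 array each), for subunits and assembly factors of each complex for CTNNB1, MYC and MYU siRNA; filled circles are genes of the symbol rule, open diamonds other assembly factors, bars medians, and dotted lines 1.5-fold. In the CTNNB1 pair the bar of complex III assembly lies at -0.95 and that of complex III subunits at -0.20.

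Mitochondrial ribosomal proteins, which make the mitochondrially encoded subunits, were set beside the members. With CTNNB1 siRNA 30 of 71, or 42.3%, reached 1.5-fold on the lower side and 0 on the higher side, against 9.8% and 6.44% of all genes; the median was -0.56, against -0.02 for the structural subunits. Cytosolic ribosomal protein genes, which like the subunits are strongly expressed in most cells, had a median of -0.58 over 47 genes. A coarser rounding step in the deposited values, taken here as a mark of a high level, was carried by 6 of the 33 members (COX4I1, COX5A, COX6A1, COX8A, UQCRC1 and UQCRC2) and by 3.37% of protein-coding genes. The 401 marked protein-coding genes had medians of -0.14, -0.11 and -0.03 for CTNNB1, MYC and MYU siRNA. Set against the marked genes in place of all genes, the CTNNB1 siRNA median of the 33 members was 0.10, that of the 5 complex IV assembly factors of the rule 0.0399 and that of the other assembly factors -0.35. The mark was carried by 0 of these 5 and by 2 of the 33 other assembly factors. The part of expression level in these differences was not tested.

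With MYC siRNA no protein-coding member reached 1.5-fold, against 3.63% of all genes lower and 2.15% higher. At 2-fold the shares of all genes were 0.446% lower and 0.412% higher. Of the 33 members 12 were above 0, against 48.0% of all genes. The nearest to 1.5-fold was NDUFAF8 at -0.55, or 1.46-fold. At the other end stood COX8A (0.29), COX4I1 (0.26), COX7A2L (0.22) and COX7A2 (0.21). The 33 members had a median of -0.02, the structural subunits of 0.02 and the 7 assembly factors of the rule of -0.15. Of the 33 other assembly factors, 3 were 1.5-fold lower, LYRM7 (-0.74), BCS1L (-0.69) and COA7 (-0.65), and PET100 was higher (0.66). That is 9.09% lower and 3.03% higher, with a list median of -0.23 and 26 of the 33 below 0. Of protein-coding genes 4.39% were lower and 2.46% higher, and of those with the coarse rounding mark 12.7% and 4.99%. LYRM7, BCS1L and COA7 had values of -1.03, -0.95 and -0.97 with CTNNB1 siRNA, a pair that may share its control array. MYC itself stood at -2.38 with CTNNB1 siRNA and at -1.18 with MYC siRNA.

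With MYU siRNA the subunits lay mostly above their control, by amounts under 1.5-fold. No protein-coding member reached 1.5-fold, against 1.21% of all genes lower and 0.668% higher, and at 2-fold against 0.0945% lower and 0.0608% higher. Of the 33 protein-coding members 24, or 72.7%, were above 0, against 48.7% of all genes, with a median of 0.18. Of the 17 structural subunits 14 were above 0, with a median of 0.21. The 6 highest members were ATP5IF1 (0.46), UQCRC1 (0.46), COX14 (0.42), COX7B (0.38), COX7C (0.38) and COX5B (0.37). The 33 other assembly factors had a median of 0.04, with 20 above 0 and 0 at 1.5-fold. The most distant were TIMMDC1, a complex I factor (-0.47), the inner membrane insertase gene OXA1L (0.46), UQCC3 (0.45) and SURF1 (0.43). Mitochondrial ribosomal proteins had a median of 0.07 and cytosolic ones of 0.14. Above 0 were 45 of the 71 mitochondrial ones, or 63.4%, and 38 of the 47 cytosolic ones, or 80.9%. The share of structural subunits was 82.4%, so lying above 0 was not particular to them.

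In the MYU pair short genes lay higher than long ones, with Spearman's rho of -0.17 between gene length and difference across 11910 protein-coding genes, which are not independent replicates. Protein-coding genes were put into 10 bins of equal size by length, and 11 of the 17 structural subunits fell into the 3 bins of shortest genes. In the shortest bin, which had a median of 0.02, the 5 structural subunits COX5B, COX6A1, COX7C, COX8A and CYC1 ran from 0.32 to 0.38. In the second bin ATP5MK and COX4I1 stood at 0.02 and 0.18. In the third bin ATP5MJ, COX6B1, COX7B and UQCRC1 ran from 0.03 to 0.46, and in the fourth COX5A, COX6C, COX7A2, UQCRB and UQCRH ran from -0.08 to 0.21, with 3 of 5 above 0. UQCRC2, in the sixth bin, stood at -0.09, so the 3 subunits below 0 were all in the fourth and sixth bins. Subtracting the median of each bin left the 33 members at a median of 0.16 and the structural subunits at 0.20. The bins' medians ran from -0.03 to 0.03.

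**Figure D3:**
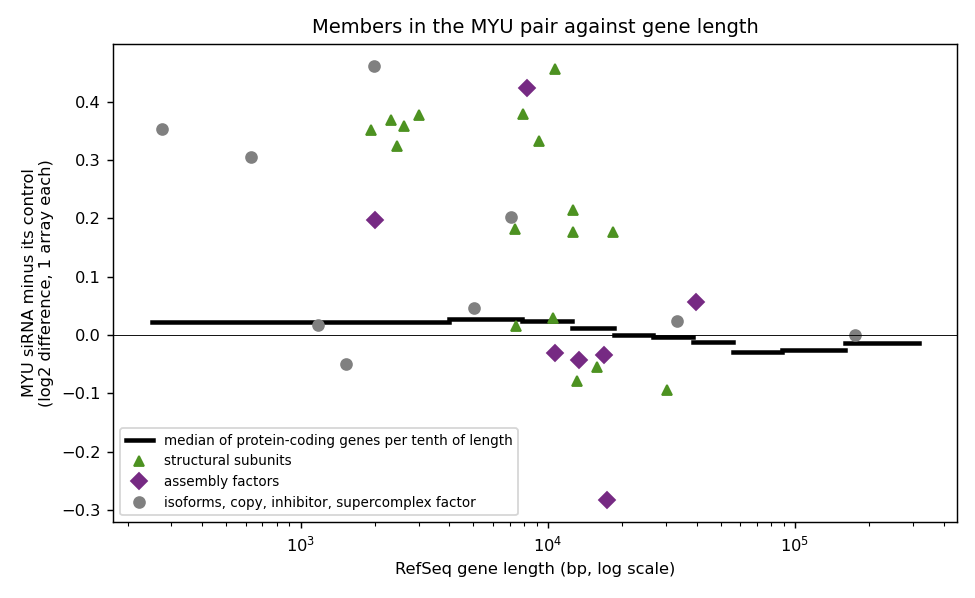
Log2 difference in the MYU pair (y axis, MYU siRNA minus its control, 1 array each) against RefSeq gene length (x axis, log scale) for the 33 protein-coding members; black bars are medians of protein-coding genes in 10 bins of length, the outer bars not drawn to their full range. The bins' medians run from -0.03 to 0.03, the 5 structural subunits of the shortest bin lie between 0.32 and 0.38, and the 3 subunits below 0 lie among longer genes.

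Enzymes that supply the chain with electrons were followed from lists of the citric acid cycle with pyruvate entry and of other donors to ubiquinone. In the CTNNB1 pair 3 of 13 cycle genes were 1.5-fold higher and 0 lower: MPC1, of the mitochondrial pyruvate carrier (1.60, or 3.03-fold), OGDH, of the 2-oxoglutarate dehydrogenase complex (1.39), and pyruvate carboxylase, PC (0.67). Of all genes 6.44% were higher and 9.8% lower at that size. The list median was -0.15, with IDH3B at -0.55 and DLAT at -0.51. MPC2, the partner of MPC1 and named for that, stood at 0.05. Of 6 other donors 3 were higher and 1 lower, against the same shares of all genes. Higher were the sulphide oxidase gene SQOR (1.53), the glycerol phosphate dehydrogenase gene GPD2 (1.09) and ETFDH, which brings in electrons of fatty acid oxidation (0.87). DHODH, the pyrimidine synthesis enzyme that reduces ubiquinone, was lower at -1.17.

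In the MYC pair 3.63% of all genes were lower and 2.15% higher. DHODH was lower at -1.17 and DLAT at -0.83, while SQOR was higher at 0.59. MPC1 (0.46), OGDH (0.56), ETFDH (0.53) and GPD2 (-0.51) lay within 1.5-fold. In the MYU pair PDHB, of the pyruvate dehydrogenase complex, was lower at -1.09, MPC1 at -0.72 and SQOR at -0.89, against 1.21% of all genes lower. None of these 19 genes was 1.5-fold higher, against 0.668% of all genes. The values of MPC1 and SQOR thus had opposite signs with MYU and with CTNNB1 siRNA, a difference that was not tested.

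**Figure D4:**
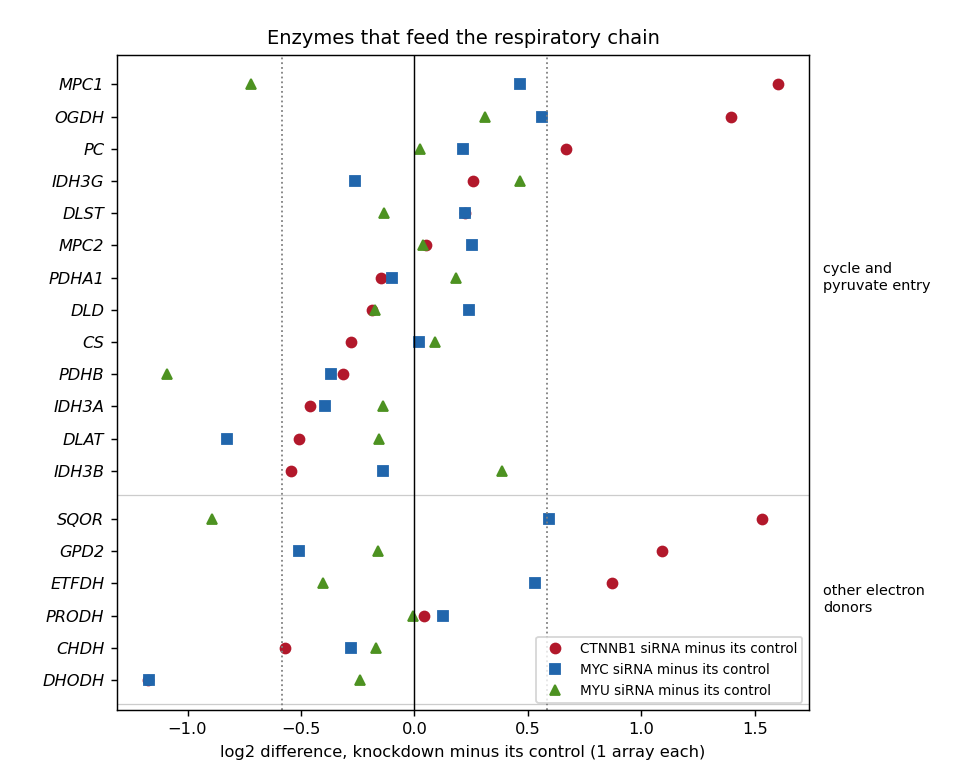
Log2 difference (x axis), knockdown minus its control (1 array each), of 13 cycle and pyruvate entry genes and 6 other electron donors; circles are the CTNNB1, squares the MYC and triangles the MYU pair, and dotted lines mark 1.5-fold. MPC1 and SQOR lie at 1.60 and 1.53 in the CTNNB1 pair and at -0.72 and -0.89 in the MYU pair, and the DHODH circle lies behind its square at -1.17.

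Regulators of mitochondrial biogenesis were measured in 6 of 19 cases. Of these 6, 1 was 1.5-fold lower with CTNNB1 siRNA and 2 with MYC siRNA, against 9.8% and 3.63% of all genes. TWNK, the helicase of mitochondrial DNA, was lower with CTNNB1 siRNA (-1.25) and with MYC siRNA (-0.82), and stood at 0.22 with MYU siRNA. POLRMT, the mitochondrial RNA polymerase, had values of -0.42, -0.88 and 0.54 for CTNNB1, MYC and MYU siRNA. NRF1, a transcription factor of respiratory genes, had values of -0.39, -0.43 and -0.34, and YY1 of -0.32, -0.50 and -0.26. ESRRA was at 0.06, -0.43 and 0.26 and MTERF1 at -0.12, 0.05 and 0.38. Of 3 genes of exchange across the outer membrane, VDAC2 was 1.5-fold higher with CTNNB1 siRNA (0.60), where 6.44% of all genes were. VDAC2 had values of -0.50 with MYC siRNA and 0.20 with MYU siRNA. VDAC1 had values of 0.06, -0.22 and 0.12, and VDAC3 of -0.40, -0.12 and -0.42. Of 13 mitochondrially encoded genes 0 have a named probe set.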

How the data were processed

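Total RNA of 6 LS180 samples was hybridised to Affymetrix arrays, per the labels' protocols. The authors deposited log2 expression values, centred within each pair: knockdown and control of any probe set add up to 0 within 1e-06. The log base is assumed from the values. How the arrays were background-corrected and normalized is not stated. Of 44629 probe sets, 15835 have 1 gene symbol in the platform annotation and 28794 are unnamed here. All 15835 matched the RefSeq gene table (GRCh38.p14), used for names, types and lengths. A gene's value is the mean of its probe sets, with no filter. Members and lists were chosen with earlier results of these data known. All 37 members are named. Of the other lists, genes at 1.5-fold and up to 4 with the largest absolute difference per pair are named, with any further gene marked in the text, except that biogenesis regulators and VDAC genes are all given. The hair keratin yardstick, the roles given to members, the sizes used for opposite signs and the final definition of the coarse rounding mark were chosen after seeing the data. An earlier definition of that mark also took in genes by chance. The mark is that all 6 values are multiples of the coarse step and at least 1 pair misses a sum of 0 by that step. Gene summaries and the length correction were tested on simulated data of 14812 genes. Python 3.11.15, numpy 2.4.6, pandas 2.3.3 and matplotlib 3.10.9 were used.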

Additional observations from a re-analysis of the deposited data

Results flagged for a closer look

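Some values lay on opposite sides of 0 with MYU and with CTNNB1 siRNA, each at least 0.3 from 0 for a gene or 0.15 for the median of a complex. The difference was not tested, since each pair has 1 array on either side. ATP5IF1 stood at 0.46 with MYU siRNA and at -0.55 with CTNNB1 siRNA, which are 1.02 apart on the log2 scale. UQCRHL stood at 0.35 with MYU siRNA and at -0.52 with CTNNB1 siRNA, 0.87 apart. UQCRH, which is nearly identical and may share its probes' transcripts, stood at -0.08 and -0.44 and so kept its sign. COX7C stood at 0.38 with MYU siRNA and at -0.35 with CTNNB1 siRNA, 0.73 apart. The median of the complex III genes was 0.27 with MYU siRNA and -0.20 with CTNNB1 siRNA, 0.47 apart. Without UQCRHL these medians were 0.21 and -0.17.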

How the results depend on the processing

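Counts at 1.5-fold and medians of the members and complexes gave 162 values under other settings. Of these, 145 stayed within 1.5 times the count or within the yardstick's standard deviation, and 17 moved. Removing the length trend and leaving out tissue isoforms with UQCRHL (chosen after seeing the data) moved none of them. Length removal could move none of the medians, because every bin's median lay within 0.03 of 0, inside the yardstick's standard deviation. Centring on all genes and either choice of probe set moved none either. Centring could move none of its 27 values, because the median over all genes was 0 in each pair. Among the protein-coding members only COX6A1 has several probe sets, so the choice of probe set had little room to act. With its probe set nearest to 0, the median of complex IV subunits still turned sign in the CTNNB1 and MYC pairs. It went from 0.046 to -0.0094 in the CTNNB1 pair and from 0.0052 to -0.029 in the MYC pair. In the CTNNB1 pair 1 member, NDUFAF8, was 2-fold lower, and 0 structural subunits were 1.5-fold lower. Without ATP5IF1, the ATP synthase median in the MYU pair was 0.17. By construction, setting medians against genes with the coarse rounding step adds the shift of those genes. In the CTNNB1 pair this gave 0.10 for all members, -0.061 for complex III, 0.19 for complex IV subunits, 0.0399 for complex IV assembly, -0.82 for complex I assembly, 0.0070 for ATP synthase and -0.35 for the other assembly factors. In the MYC pair it gave, in that order, 0.0876, 0.0555, 0.12, 0.0547, -0.27, 0.14 and -0.12. The sign of the median thus turned in both pairs for all members and for complex IV assembly, in the CTNNB1 pair for ATP synthase and in the MYC pair for complex III, and in neither pair for complex I assembly and the other assembly factors. These turns follow from the size of the shift, which is not matched to the level of each group. The mark was carried by 6 of the 33 members, 2 of 6 complex III genes and 4 of 10 complex IV subunits. It was carried by 2 of the 33 other assembly factors. Complex IV assembly, complex I assembly and ATP synthase each had 0 marked genes. Probe set choice moved single values of COX6A1 and NDUFA6-DT. No paired analysis was possible because each knockdown and each control has 1 array. Leaving out replicates, quantile normalization and a filter on low values were not run, for want of replicates and levels. The number of arrays limits the precision of every value.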
